A study of Mus musculus with 10 samples.

Results

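The genes described here encode proteins of blood clotting and plasma transport, most of which hepatocytes secrete: clotting factors, their inhibitors, the fibrinolytic and kinin systems, the inter-alpha inhibitor family and carrier proteins, together with the enzymes of the vitamin K cycle. They were chosen by name, 50 symbols in all, of which 49 had a row in a table of 23535 loci with values. The symbol Hgfac1 had no row. Their transcripts were measured by RNA sequencing in the livers of mice at postnatal day 90 on a mixed C57/B6 and 129 background, 40 h after a partial hepatectomy, an operation that takes out most of the liver and sets off its regrowth. The KO group (3 libraries) carried Arid1a Fl/Fl and Alb-cre, and the WT group (3 libraries) carried Arid1a Fl/Fl without Cre, so both groups share the floxed allele and the operation. Alb-cre expresses Cre recombinase from the albumin promoter, which is active in hepatocytes. Cells of the liver in which that promoter was never active keep Arid1a, which encodes a DNA-binding component of SWI/SNF remodelling complexes. The 4 libraries from livers before hepatectomy (2 KO, 2 WT) were not analysed here, so no response to the operation was computed. The labels do not say that each library is a separate mouse, so the p-values may reflect technical spread alone.

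Clotting runs through proteases that circulate as inactive precursors and activate each other until thrombin cuts fibrinogen into fibrin. Several of them carry a Gla domain, whose glutamates are carboxylated in the liver by a vitamin K dependent enzyme so that the protein can bind calcium and membranes. Antithrombin, heparin cofactor and the protein C system restrain the cascade, and plasmin dissolves the clot. Hepatocytes make nearly all of these proteins as well as albumin and most plasma carriers, and a regenerating liver has to keep supplying them while its cells divide.

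The 5' flanks of 6 genes are shown because these genes form the gene clusters to which the results return: Ahsg, Fetub and Hrg lie next to each other on chromosome 16, and Fga, Fgb and Fgg on chromosome 3. Each stretch holds the 150 bases before the RefSeq start of the gene (GRCm38.p6), in its direction of transcription, and capitals mark matches to the 5 motifs named after the sequences.
Fetub, chr16:22918232-22918381, plus strand: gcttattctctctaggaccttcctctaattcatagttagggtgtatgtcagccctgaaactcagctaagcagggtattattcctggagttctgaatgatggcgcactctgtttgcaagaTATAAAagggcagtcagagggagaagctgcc
Ahsg, chr16:22891865-22892014, plus strand: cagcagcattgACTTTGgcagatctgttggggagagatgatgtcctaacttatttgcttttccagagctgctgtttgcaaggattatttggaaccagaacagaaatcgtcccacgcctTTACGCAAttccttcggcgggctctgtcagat
Hrg, chr16:22950922-22951071, plus strand: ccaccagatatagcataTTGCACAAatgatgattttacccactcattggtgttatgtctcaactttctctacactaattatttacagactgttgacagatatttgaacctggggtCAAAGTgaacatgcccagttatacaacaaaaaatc
Fga, chr3:83026003-83026152, plus strand: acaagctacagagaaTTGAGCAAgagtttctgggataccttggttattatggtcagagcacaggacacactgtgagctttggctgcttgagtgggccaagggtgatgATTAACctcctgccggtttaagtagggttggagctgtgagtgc
Fgb, chr3:83049864-83050013, minus strand: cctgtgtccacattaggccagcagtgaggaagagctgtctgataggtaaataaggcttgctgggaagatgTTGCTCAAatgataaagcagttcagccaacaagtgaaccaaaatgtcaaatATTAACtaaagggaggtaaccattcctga
Fgg, chr3:83007574-83007723, plus strand: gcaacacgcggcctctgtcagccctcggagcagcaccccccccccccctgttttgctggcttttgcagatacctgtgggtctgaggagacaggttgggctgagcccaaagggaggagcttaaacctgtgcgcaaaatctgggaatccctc
The Fgg start used by RefSeq lies 172 bases before the deposited locus, and that of Fgb 73 bases before it.

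The motifs were searched on both strands in windows from 250 bases before to 50 bases after each start, available for 42 of the 50 genes. The HNF1-type motif GTTAAT was in 10 of the 42 windows (23.8%), against 7.1% of all 32851 windows of the same length. The HNF4 core CAAAGT was in 18 (42.9%, against 14.4%), and the C/EBP type motif TTGCNNAA in 17 (40.5%, against 10.8%). The STAT type motif TTCNNNGAA was in 7 (16.7%, against 8.3%) and TATAAA in 8 (19%, against 13.6%). In the printed stretches, Fga and Fgb share an HNF1-type and a C/EBP type match, and Ahsg and Hrg share an HNF4 core and a C/EBP type match, while the Fetub stretch holds only TATAAA and the Fgg stretch none of the 5. The whole windows, which are longer, also held an HNF4 core for Fetub and TATAAA for Hrg. They added a STAT type match for Fga and Fgb and none for Fgg. Among the 8 genes with a window whose KO libraries all lay below WT, 3 held the HNF1-type, 3 the HNF4 and 3 the C/EBP type motif, and among the other 34 these counts were 7, 15 and 14. These are matches of letters, and no binding was measured.

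Arid1a itself was 4.41, 5.57 and 6.15 FPKM in KO and 8.68, 8.45 and 8.49 FPKM in WT (FPKM: fragments scaled by transcript length and by mapped fragments of the library). Every KO library lay below every WT library (exact two-sided permutation p = 0.1, the smallest that 3 against 3 allows). Relative depth lay between 0.834 and 1.08 in KO and between 1 and 1.21 in WT, relative to WT replicate 1; how many reads lie behind a value is not known. The hepatocyte markers Asgr1 and Hnf4a were present in all 6 libraries, at 235 to 262 and 138 to 173 FPKM in KO and 185 to 233 and 114 to 196 FPKM in WT. Of the 8 hepatocyte defining markers, all tested, 5 had a log2 difference above 0 and 3 below (Alb, Apob and Tat), and 0 passed. KO replicate 2 stood apart from the other KO libraries. The summed FPKM of 10 mitosis genes, among them Mki67 and Ube2c, was 274, 12.6 and 455 in KO replicates 1, 2 and 3, against 15.3, 7.89 and 40.1 in WT, which places KO replicate 2 among the WT values. Results are therefore also given without it, and the part of the mitotic state in them was not tested.

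Plasma protein transcripts took a large part of each library. The 49 genes summed to 18.7%, 13.7% and 14.1% of all FPKM in KO, against 17.4%, 19.8% and 18.9% in WT. The share in KO replicate 1 was inside the range of WT, and those in KO replicates 2 and 3 were under it. Albumin (Alb), which binds fatty acids and hormones and holds most of the oncotic pressure of plasma, was the most abundant, followed by the heme carrier hemopexin (Hpx), Fgb, fetuin-A (Ahsg), Fgg and Fga. In mean FPKM over the 6 libraries, 13 genes exceeded 1000, 22 lay between 100 and 1000, and 11 tested genes lay under 100. The lowest tested were A1bg and tissue factor (F3), the cell-surface starter of clotting.

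**Figure D1:**
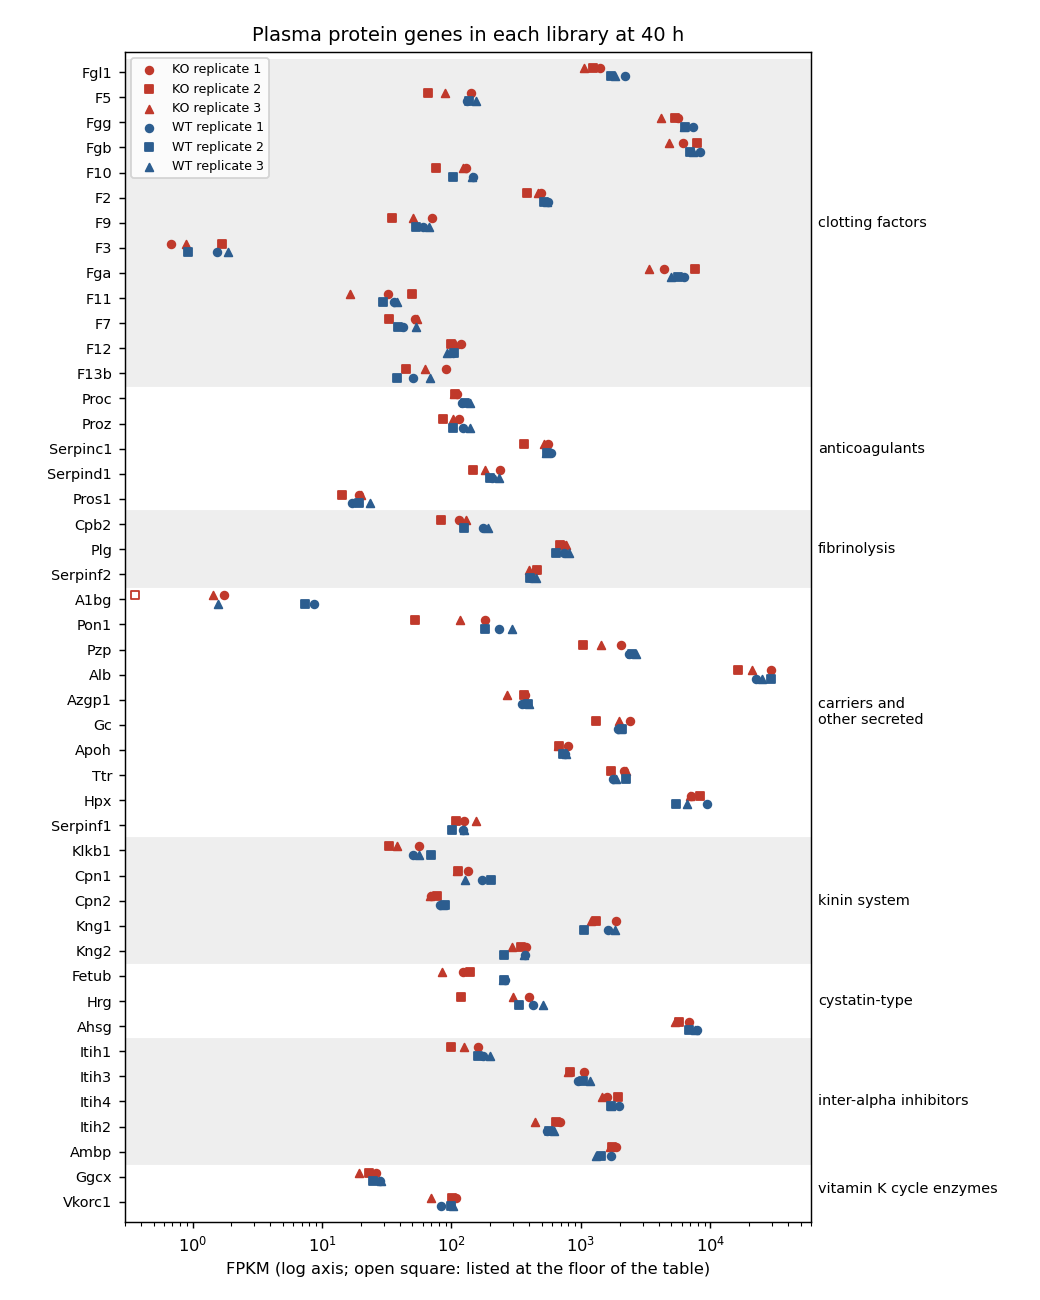
FPKM (log axis) of the 46 tested genes in the 3 KO libraries (red) and the 3 WT libraries (blue), with replicates as symbols and genes grouped by role. The highest value is 29437 FPKM for Alb in WT replicate 2, A1bg in KO replicate 2 is listed at 0 and drawn as an open square at the left edge, and in Fetub the KO points stand clear to the left of the WT points.

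Setting KO against WT addresses how loss of Arid1a in hepatocytes bears on the output of these genes during regrowth. With limma and Benjamini-Hochberg adjustment over all 10956 loci tested, 0 of the 46 plasma protein genes that could be tested passed an adjusted p of 0.05. Of all tested loci 0.119% did, 0.0183% (2 loci) higher in KO and the other 11 loci lower. The smallest p belonged to Fetub (fetuin-B), with 122, 139 and 85.0 FPKM in KO, against 257, 253 and 248 FPKM in WT. The values of most genes leaned lower in KO: 36 of 46 tested genes had a log2 difference below 0 (78.3%, against 30.3% of all tested loci). Their median log2 difference was -0.24, against 0.15 for all tested loci, and single genes ranged from -1.66 (A1bg) to 0.31 (F13b).

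For 10 of the 46 genes every KO library lay below every WT library (21.7%, against 5.44% of all tested loci), and for 0 every KO library lay above (against 16.7%). The 10 were Fetub, Pon1, Pzp, Fgl1, Itih1, Fgg, Ahsg, F2, Proc and Cpn2. At an unadjusted p under 0.05, 5 genes were lower in KO (Fetub, Fgl1, Pzp, A1bg and Pon1; 10.9%, against 3.99%) and 0 were higher (against 11.2%). The 46 genes passed a filter on the mean of the 6 libraries, and all 46 also averaged at least 1 FPKM in each genotype.

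As deposited, the median locus lay above 0 in KO. After median-of-ratios rescaling, which brought the median of all loci to 0.02, the median of the 46 genes was -0.39. Below 0 were then 44 genes (against 47.1% of all loci), Ambp and F13b being the exceptions, and 8 genes had changed sign (F7, F12, Hpx, Itih2, Kng2, Serpinf1, Serpinf2 and Ttr). The genes whose KO libraries all lay below WT were then 19 (41.3%, against 9.67%), and again 0 genes passed the adjusted threshold, with 12 lower in KO at an unadjusted p under 0.05 (against 6.61%) and 0 higher (against 5.46%). Without KO replicate 2 and with the values as deposited, the median was -0.18, and Fetub alone passed (log2 difference -1.30, adjusted p = 0.0399). Of all loci 2.21% then passed, 1.80% higher and 0.412% lower in KO. At an unadjusted p under 0.05, 2 of the 46 plasma protein genes were then lower in KO, near the share of all loci (4.80%). By the same measure 0 were higher (against 13.3%).

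**Figure D2:**
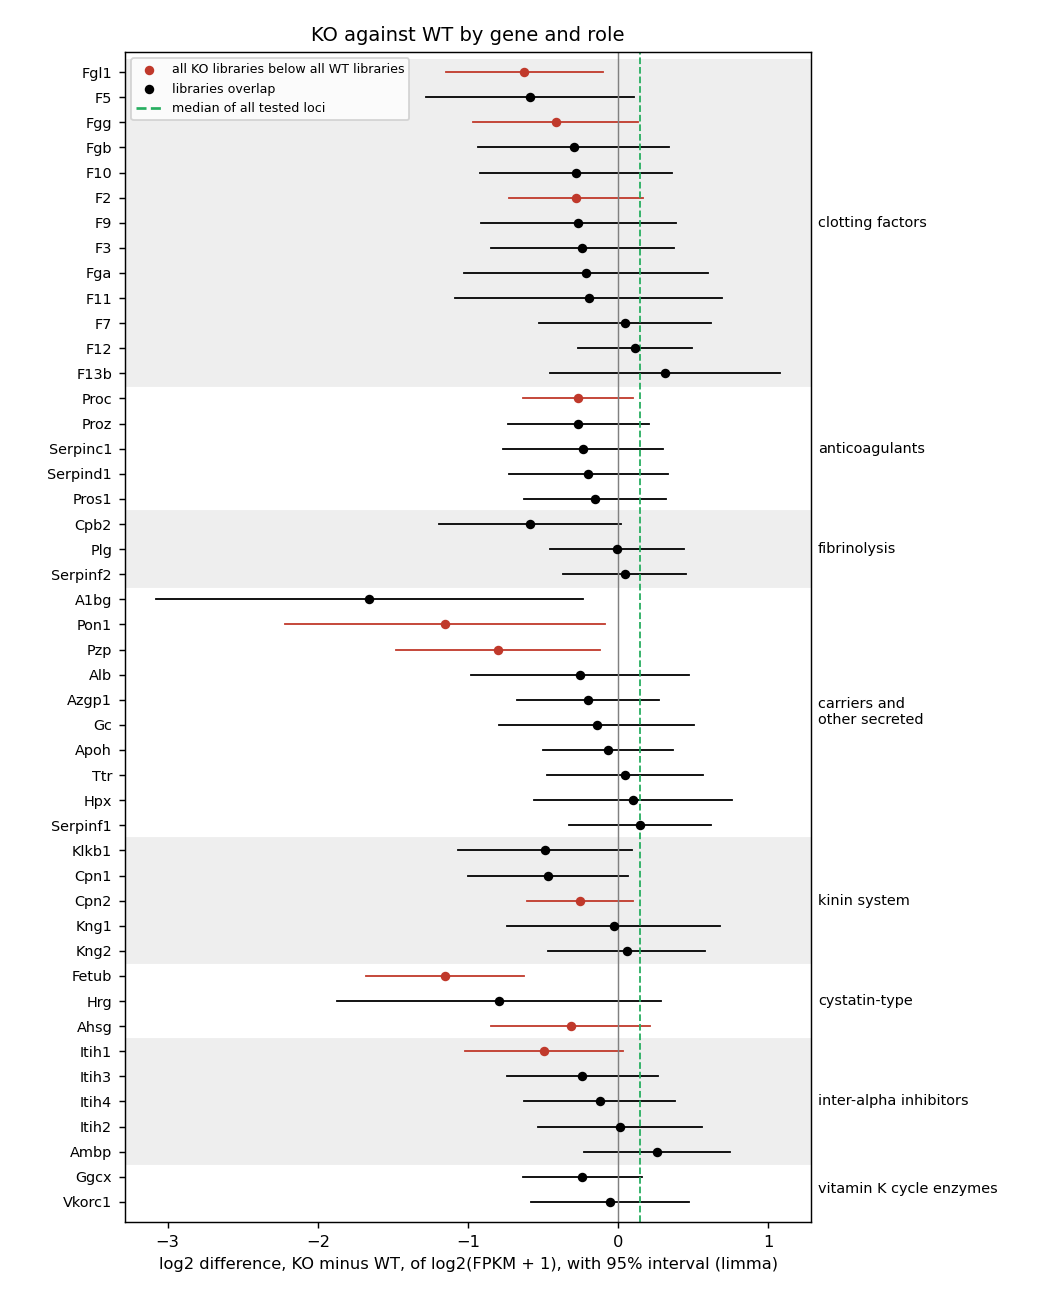
Log2 difference (KO minus WT) of log2(FPKM + 1) for the 46 tested genes, with limma's 95% intervals, grouped by role; red marks genes whose KO libraries all lie below the WT libraries, and the dashed line is the median of all tested loci. The 46 genes have a median of -0.24, left of the dashed line at 0.15, and most intervals include 0.

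Spread among KO libraries was part of the pattern. The SD of log2(FPKM + 1) was larger in KO than in WT for 37 of the 46 genes (80.4%, against 60.7% of all tested loci), with a median SD of 0.33 in KO and 0.16 in WT (0.25 and 0.20 over all tested loci). The lowest of the 6 values was in KO replicate 2 for 19 genes (41.3%, against 12.7% of all tested loci), in KO replicate 3 for 18 (39.1%, against 14.3%), in KO replicate 1 for F3 alone (2.17%, against 11%) and in a WT library for 8. After median-of-ratios rescaling the KO counts were 25 for replicate 2, 15 for replicate 3 and 1 for replicate 1. The genes at their lowest in KO replicate 2 included Alb, F5, F9, F10, Hrg, Pon1, Pzp and Serpinc1. Those at their lowest in KO replicate 3 included Fga, Fgb, Fgg, Fetub, F11, Itih2 and Itih4. Which genes were at their lowest thus varied between the KO libraries, for some genes by small margins (Proc, 107 and 105 FPKM in KO replicates 2 and 3). Whether this exceeds the noise of single libraries was not tested.

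Of the 13 clotting factor genes, 0 passed the test, and 10 lay below 0, with a median log2 difference of -0.26. Fgl1 encodes fibrinogen-like protein 1, a secreted hepatokine related to fibrinogen that does not form clots. It had 1402, 1248 and 1061 FPKM in KO, against 2201, 1700 and 1819 FPKM in WT (log2 difference -0.62, SE 0.22, adjusted p = 0.289). The groups did not overlap, and with any 1 library left out the difference ranged from -0.72 to -0.52. F5, the cofactor that lets factor Xa make thrombin, had 142, 65.6 and 88.6 FPKM in KO and 132, 137 and 156 FPKM in WT (log2 difference -0.59, SE 0.29, adjusted p = 0.379). The difference was -0.33 without KO replicate 2 and -0.88 without KO replicate 1. KO replicate 1 sat inside the WT range while the other KO libraries sat well under it, and the F5 locus overlaps Gm16548. Prothrombin (F2) had 495, 381 and 466 FPKM in KO, each below the 556, 518 and 545 FPKM in WT (log2 difference -0.28, SE 0.19).

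The fibrinogen genes Fga, Fgb and Fgg encode the chains that are assembled in the hepatocyte into 1 protein, and they lie within 41895 bases on chromosome 3 (83007896 to 83049790, mm10). Fgg had 5572, 5293 and 4152 FPKM in KO, against 7327, 6354 and 6258 FPKM in WT, without overlap (log2 difference -0.42, SE 0.23, adjusted p = 0.415). Fgb had 6117, 7926 and 4764 FPKM in KO and 8353, 7008 and 7311 FPKM in WT. Fga had 4381, 7638 and 3367 FPKM in KO and 6284, 5635 and 4988 FPKM in WT. In KO replicate 2, Fga was the highest of all 6 libraries while Fgg was below every WT library. The ratio of Fga to Fgg was accordingly 0.786, 1.44 and 0.811 in KO and 0.858, 0.887 and 0.797 in WT. The ratio of Fgb to Fgg was 1.10, 1.5 and 1.15 in KO and 1.14, 1.10 and 1.17 in WT. Chain balance was thus near that of WT in KO replicates 1 and 3 and apart in KO replicate 2, and without that library the median of the chains was -0.48 in place of -0.30. It was -0.11 without KO replicate 3, so its size rested on which KO libraries were used.

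**Figure D3:**
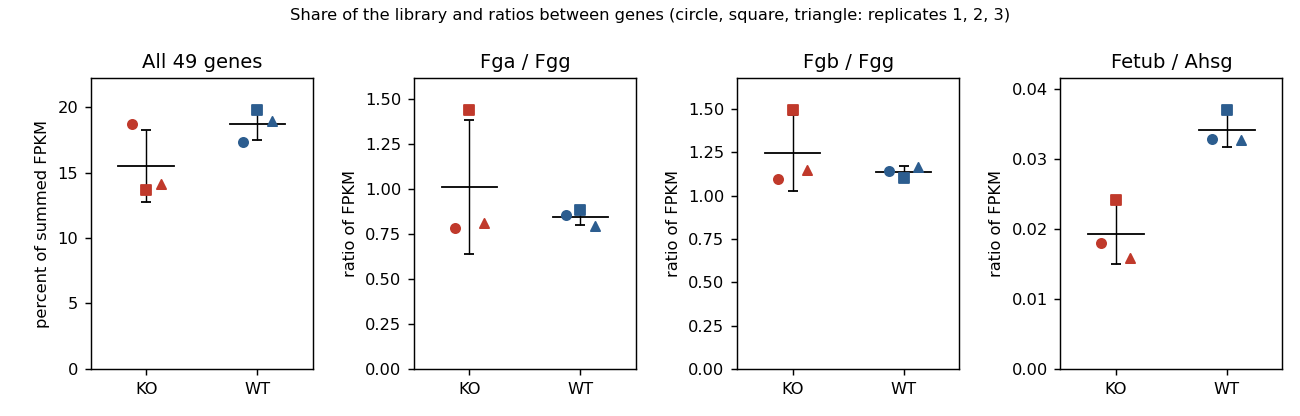
Percent of summed FPKM taken by the 49 genes, and ratios of FPKM between Fga and Fgg, Fgb and Fgg, and Fetub and Ahsg, per library in KO (left, red) and WT (right, blue); lines are means and bars SD (n = 3 each). KO replicate 2 (square) has the highest Fga to Fgg ratio, 1.44, and Fetub to Ahsg is at most 0.0242 in KO and at least 0.0327 in WT.

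The other clotting factors overlapped between genotypes. F11, which starts the intrinsic pathway's amplification, had 32.3, 49.2 and 16.4 FPKM in KO and 36, 29.4 and 37.9 FPKM in WT, so KO held both the highest and the lowest value. F13b, the carrier subunit of the fibrin-crosslinking enzyme, had a log2 difference of 0.31 (SE 0.32), with 90.3, 44.3 and 62.3 FPKM in KO and 50.1, 37.7 and 68.2 FPKM in WT. It was the highest of the 46 differences with all libraries, and was 0.056 without KO replicate 1 and 0.56 without KO replicate 2. F12, the contact-phase protease, had 118, 99.3 and 106 FPKM in KO and 102, 104 and 92.8 FPKM in WT. F3, tissue factor, averaged 1.09 ± 0.536 FPKM in KO and 1.45 ± 0.485 FPKM in WT (SD, n = 3 each). F7 and F9, whose active forms cleave factor X, and F10, which encodes factor X itself, had log2 differences of 0.04, -0.26 and -0.28, and without KO replicate 2 these were 0.27, -0.01 and -0.038.

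F2, F7, F9 and F10 share their Gla domain with Proc, Pros1 and Proz, and the 7 Gla protein genes had a median of -0.26, which was -0.038 without KO replicate 2. Of the enzymes that make the Gla residues, the carboxylase gene Ggcx had 26.3, 23.1 and 19.4 FPKM in KO and 27.9, 24.6 and 28.7 FPKM in WT (log2 difference -0.24, SE 0.17, adjusted p = 0.507). Vkorc1, which regenerates reduced vitamin K and is the target of warfarin, had 109, 101 and 69.6 FPKM in KO and 83.0, 99.9 and 103 FPKM in WT (log2 difference -0.05, SE 0.22). For both genes KO replicate 3 was the lowest library.

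All 5 anticoagulant genes of the chosen set had a log2 difference below 0, from -0.27 to -0.15, and 0 passed the test. Inhibitors outside that set did not all lie on this side. Serpina10, Tfpi and Thbd had log2 differences of 0.39, 0.36 and 0.25, and Serping1 had -0.31, of which 0 passed. Proc, the precursor of the protease that inactivates factors V and VIII, had 110, 107 and 105 FPKM in KO, each below the 121, 128 and 140 FPKM in WT (log2 difference -0.27, SE 0.15, adjusted p = 0.427). Its KO libraries lay close together, with an SD of 2.49 FPKM, against 9.62 FPKM in WT. Proz, the cofactor of an inhibitor of factor Xa, had 114, 85.5 and 102 FPKM in KO and 123, 102 and 138 FPKM in WT. Antithrombin (Serpinc1), the main inhibitor of thrombin, had 554, 361 and 519 FPKM in KO and 583, 544 and 533 FPKM in WT. Only KO replicate 2 of Serpinc1 stood far from the rest, and its log2 difference was -0.24 with that library and -0.045 without it. Serpinc1 was the median gene of the 5 in both cases. Serpind1, heparin cofactor II, whose locus overlaps Pi4ka, and Pros1, the cofactor of protein C, averaged 188 ± 45.5 and 17.9 ± 3.2 FPKM in KO and 212 ± 17.4 and 20.0 ± 3.39 FPKM in WT (SD, n = 3 each).

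In fibrinolysis, Plg, the precursor of plasmin, had the log2 difference nearest 0 of the 46 genes before rescaling. Rescaled by median of ratios it was -0.16, and Serpinf1 was then nearest, at -0.0058. Plg had 723, 686 and 763 FPKM in KO and 744, 643 and 803 FPKM in WT, a log2 difference of -0.01 with a 95% interval from -0.45 to 0.44. The plasmin inhibitor alpha-2-antiplasmin (Serpinf2) had 450, 456 and 400 FPKM in KO and 411, 407 and 447 FPKM in WT (log2 difference 0.04, 95% interval -0.37 to 0.45). Cpb2, a carboxypeptidase that protects fibrin from plasmin, had 115, 82.3 and 129 FPKM in KO and 174, 125 and 192 FPKM in WT (log2 difference -0.59, SE 0.25, adjusted p = 0.334). KO replicate 3 just overlapped WT replicate 2. The plasminogen activators were barely detected, which the filter left untested: Plat had 0.0701, 0.554 and 0.0456 FPKM in KO and 0.228, 0.222 and 0.0630 FPKM in WT. Plau had 0.0382, 0.0804 and 0.496 FPKM in KO, against 0.579 and 0.206 FPKM in WT replicates 1 and 3, and was listed at 0 in WT replicate 2.

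In the kinin system, high molecular weight kininogen carries plasma prekallikrein (Klkb1), which frees bradykinin from it, and carboxypeptidase N (Cpn1 and Cpn2) inactivates the peptide. Cpn2 had 69.8, 77.2 and 68.3 FPKM in KO, each below the 82.3, 88.7 and 86.3 FPKM in WT (log2 difference -0.26, SE 0.15, adjusted p = 0.435). The catalytic subunit gene Cpn1 had 135, 112 and 110 FPKM in KO and 171, 204 and 127 FPKM in WT (log2 difference -0.47, SE 0.22, adjusted p = 0.368), with KO replicate 1 above WT replicate 3. Klkb1 had 56.4, 33.0 and 38.3 FPKM in KO and 50.2, 70.0 and 56.6 FPKM in WT (log2 difference -0.48, SE 0.24). The kininogen genes Kng1 and Kng2 differed little on average: Kng1 was 1457 ± 353 FPKM in KO and 1501 ± 405 FPKM in WT, and Kng2 was 339 ± 40.9 FPKM in KO and 329 ± 63.1 FPKM in WT (SD, n = 3 each). How reads were shared out between these related genes is not known, and their sequences were not compared here.

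The cystatin-type glycoprotein genes Fetub, Hrg and Ahsg all lay below 0, with a median of -0.79, and 0 of the 3 passed. That median was -0.29 without KO replicate 2 and -1.15 without KO replicate 1. Fetuin-B (Fetub) is a plasma inhibitor of astacin-type proteases that in mice protects the egg coat from premature hardening. Its log2 difference was -1.15 (SE 0.22, 95% interval -1.68 to -0.63), with an unadjusted p of 0.00135 and an adjusted p of 0.136. Mean FPKM was 115 ± 27.7 in KO and 253 ± 4.48 in WT (SD, n = 3 each), so KO held 0.457 of the WT level. Leaving out any 1 library kept the difference between -1.30 and -0.95, and the adjusted p ranged from 0.0399 without KO replicate 2 to 0.465. After median-of-ratios rescaling the difference was -1.30.

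Fetub (chromosome 16, 22918382 to 22939768) lies in a run of 5 cystatin-domain genes with no other locus of the table between them: Ahsg, Fetub, Hrg, Kng2 and Kng1, within 190064 bases (22892015 to 23082078, mm10). Ahsg, fetuin-A, which keeps calcium phosphate in solution, had 6799, 5763 and 5369 FPKM in KO, each below the 7835, 6818 and 7595 FPKM in WT, though KO replicate 1 and WT replicate 2 were nearly equal (log2 difference -0.32, SE 0.22, adjusted p = 0.510). Hrg, the histidine-rich glycoprotein that binds heparin and plasminogen, had 395, 118 and 297 FPKM in KO and 427, 332 and 510 FPKM in WT (log2 difference -0.79, SE 0.45, adjusted p = 0.425). The value of Hrg depended on KO replicate 2, without which it was -0.28. Along the run the log2 differences were -0.32, -1.15, -0.79, 0.06 and -0.03, and whether neighbours differ from each other was not tested. Without KO replicate 2, Ahsg was at -0.29, near the value of Hrg. The ratio of Fetub to Ahsg was 0.0180, 0.0242 and 0.0158 in KO and 0.0328, 0.0371 and 0.0327 in WT, and this ratio does not depend on scaling between libraries.

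**Figure D4:**
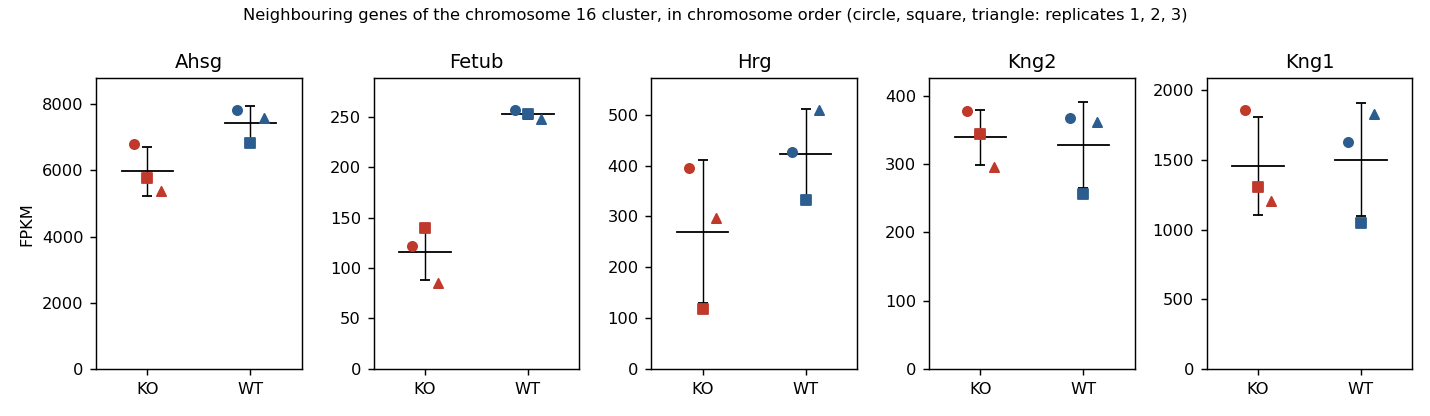
FPKM of the 5 neighbouring genes on chromosome 16, in chromosome order, per library in KO (left, red) and WT (right, blue); lines are means and bars SD (n = 3 each), and each panel has its own axis from 0. Fetub is at 85.0 to 139 FPKM in KO and 248 to 257 in WT, while the Kng2 and Kng1 libraries overlap.

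Other gene clusters showed smaller spans. Itih4, Itih3 and Itih1 lie within 56798 bases on chromosome 14 and had log2 differences of -0.12, -0.24 and -0.49. F7, F10 and Proz, within 48973 bases on chromosome 8, had 0.04, -0.28 and -0.26. F11 and Klkb1, also on chromosome 8, had -0.20 and -0.48, and Serpinf1 and Serpinf2 on chromosome 11 had 0.15 and 0.04. None of these differences passed the test.

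The inter-alpha inhibitors are heavy chains (Itih1, Itih2, Itih3, Itih4) of which several are joined to bikunin, which is made from the precursor encoded by Ambp, and then passed to hyaluronan. Heavy and light chain genes did not lie on 1 side. Itih1 had 160, 100 and 125 FPKM in KO, each below the 175, 161 and 198 FPKM in WT (log2 difference -0.49, SE 0.22, adjusted p = 0.345), although KO replicate 1 was close to WT replicate 2, and the difference was -0.33 without KO replicate 2. Itih3 had 1060, 823 and 797 FPKM in KO and 943, 1035 and 1167 FPKM in WT (log2 difference -0.24, SE 0.21). Ambp was on the other side, with 1871, 1744 and 1670 FPKM in KO and 1702, 1437 and 1303 FPKM in WT (log2 difference 0.26, SE 0.20, adjusted p = 0.552), and stayed above 0 after rescaling, at 0.10. Itih2 and Itih4 averaged 592 ± 131 and 1655 ± 256 FPKM in KO and 577 ± 40.5 and 1792 ± 142 FPKM in WT (SD, n = 3 each). The ratio of Itih1 to Ambp was 0.0856, 0.0574 and 0.0748 in KO and 0.103, 0.112 and 0.152 in WT, without overlap. Itih1 and Ambp had the lowest and the highest log2 difference of this role, so their ratio tends to separate the groups. The share of such ratios without overlap was not computed. The ratio of Itih2 to Ambp was 0.368, 0.371 and 0.265 in KO and 0.321, 0.392 and 0.478 in WT, with overlap.

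Among carriers and other secreted proteins, 7 of 10 tested genes lay below 0, with a median of -0.17. That median was -0.044 without KO replicate 2, -0.31 without KO replicate 1 and -0.32 after median-of-ratios rescaling. Pon1, paraoxonase 1, an esterase carried on HDL, had 181, 52.6 and 116 FPKM in KO, against 235, 181 and 292 FPKM in WT (log2 difference -1.15, SE 0.45, adjusted p = 0.311). KO replicate 1 and WT replicate 2 were nearly equal, at 180.572 and 180.578 FPKM, so the groups only just failed to overlap, and without KO replicate 2 the difference was -0.67. Pzp, a broad protease trap of the alpha-2-macroglobulin family whose locus overlaps Gm10069, had 2023, 1030 and 1425 FPKM in KO, all below the 2366, 2486 and 2678 FPKM in WT (log2 difference -0.80, SE 0.29, adjusted p = 0.294). A1bg was at the bottom of the 46 genes with a log2 difference of -1.66 (SE 0.60, adjusted p = 0.299), at low levels: 1.77 and 1.44 FPKM in KO replicates 1 and 3 and listed at 0 in KO replicate 2, against 8.69, 7.43 and 1.59 FPKM in WT. WT replicate 3 lay within the KO range.

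The abundant carriers overlapped between the genotypes. Alb had 29106, 16226 and 20933 FPKM in KO and 22616, 29437 and 25141 FPKM in WT, a log2 difference of -0.25 (95% interval -0.98 to 0.47) that was -0.05 without KO replicate 2. Ttr, which carries thyroxine and retinol-binding protein, averaged 2022 ± 279 FPKM in KO and 1956 ± 225 FPKM in WT. Gc, the vitamin D binding protein, averaged 1884 ± 552 FPKM in KO and 2019 ± 85.9 FPKM in WT (SD, n = 3 each). Hpx had 7120, 8318 and 7008 FPKM in KO and 9381, 5464 and 6579 FPKM in WT. Apoh, which binds phospholipids, and Azgp1, zinc-alpha-2-glycoprotein, had log2 differences of -0.07 and -0.20, and Serpinf1, pigment epithelium-derived factor, had 0.15. Rbp2, a retinol-binding protein of the intestine, was listed at 0 in all 6 libraries.

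**Figure D5:**
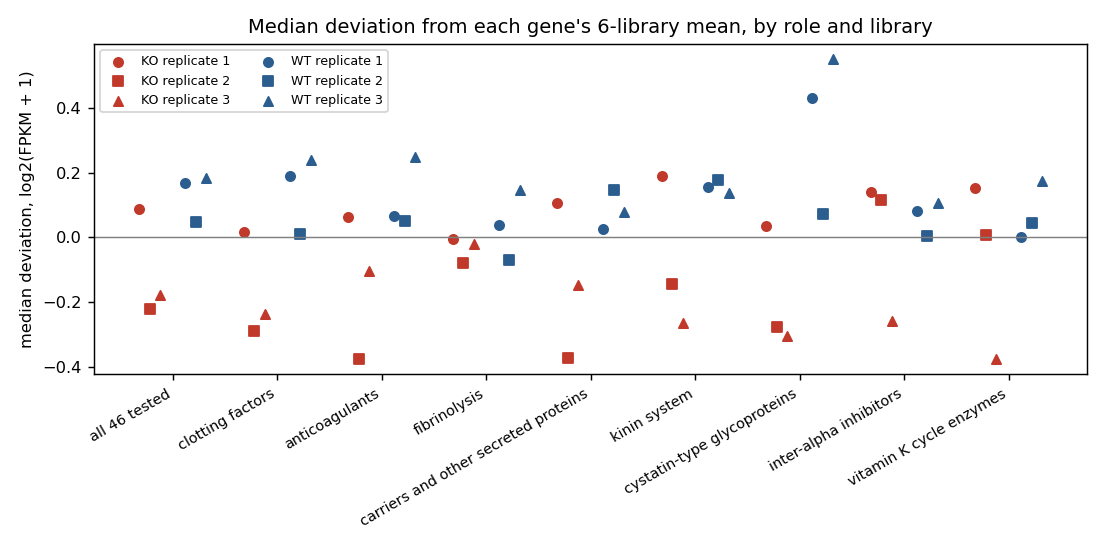
Median deviation of log2(FPKM + 1) from each gene's mean over the 6 libraries, for all 46 tested genes and for each role, in KO (left, red) and WT (right, blue) libraries, as deposited. For all 46 genes KO replicates 1, 2 and 3 are at 0.09, -0.22 and -0.18 and WT replicates at 0.17, 0.05 and 0.18, so KO replicate 1 lies inside the WT range.

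Other genes of the pathway came from lists of 35 coagulation and fibrinolysis genes and 27 carrier and plasma protein genes. Of the first, 23 were tested, 0 passed (at an unadjusted p under 0.05, 2 were higher and 2 lower in KO, 8.7% each, against 11.2% and 3.99% of all tested loci). With all KO libraries below WT lay 3 (13%, against 5.44% of all tested loci), and 2 lay above (against 16.7%). After median-of-ratios rescaling these counts were 4 (17.4%, against 9.67%) and 1 (against 8%). A log2 difference below 0 was seen for 9 of the 23 (39.1%, against 30.3% of all tested loci). Their median was 0.01, and -0.11 after rescaling, against 0.15 and 0.02 for all tested loci. Gas6, a Gla protein that signals through TAM receptors, had 15.2, 11.4 and 15.3 FPKM in KO, against 33.9, 27 and 25.8 FPKM in WT (log2 difference -1.0, SE 0.18, adjusted p = 0.134). Lrp1, a receptor that clears protease complexes from plasma, had 137, 133 and 124 FPKM in KO and 178, 168 and 177 FPKM in WT. S100a10, the annexin partner that docks plasminogen on cells, had 82.2, 188 and 97.1 FPKM in KO and 62.2, 57.1 and 72.7 FPKM in WT. F2r, a thrombin receptor, had 4.15, 5.53 and 3.98 FPKM in KO and 3.72, 2.89 and 2.73 FPKM in WT.

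Of the second list, 25 genes were tested, 0 passed (at an unadjusted p under 0.05, 2 were higher and 4 lower in KO, 8.0% and 16%, against 11.2% and 3.99% of all tested loci). With all KO libraries below WT lay 4 (16%, against 5.44% of all tested loci), and 2 lay above (against 16.7%). After median-of-ratios rescaling these counts were 9 (36%, against 9.67%) and 1 (against 8%). A log2 difference below 0 was seen for 19 of the 25 (76%, against 30.3% of all tested loci). Their median was -0.13, and -0.28 after rescaling. A2m had 0.439 and 0.0950 FPKM in KO replicates 1 and 3 and was listed at 0 in KO replicate 2, against 5.98, 3.73 and 2.0 FPKM in WT (log2 difference -1.99, SE 0.33, adjusted p = 0.128). A2m, alpha-2-macroglobulin, is a relative of Pzp, and their reads could be divided unevenly. Igfals, the acid-labile subunit that holds IGF in plasma, had 25.5, 28.6 and 27.1 FPKM in KO, against 41.1, 41.4 and 43.7 FPKM in WT (log2 difference -0.62, SE 0.14, adjusted p = 0.176). Afp, the fetal counterpart of albumin, had 16.4, 59.9 and 9.19 FPKM in KO, against 1.79, 1.73 and 2.88 FPKM in WT (log2 difference 2.84, SE 0.61, adjusted p = 0.173), and passed without KO replicate 2 (adjusted p = 0.0283). Afp was thus highest in KO replicate 2, the library where Alb was lowest. Itih5, a heavy chain relative, had 1.97, 0.846 and 0.467 FPKM in KO and 2.30, 2.64 and 4.15 FPKM in WT.

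Fewer cells of a type and less RNA per cell cannot be told apart in whole tissue. Of the 11 endothelial markers, all tested, 10 had a log2 difference above 0 and 1 below (9.09%, against 30.3% of all tested loci), and 0 passed. Their median was 0.20, and 0.07 after median-of-ratios rescaling, against 0.15 and 0.02 for all tested loci, and their summed FPKM was 71.3 to 115 in KO and 72.2 to 96.3 in WT. Of the 11 Kupffer cell and macrophage markers in the table, 9 had a log2 difference above 0 and 2 below (18.2%, against 30.3%), and 0 passed. Every KO library lay above every WT library for 1 of them, Marco (against 16.7% of all tested loci). These markers summed to 132 to 221 FPKM in KO and 116 to 178 FPKM in WT. Stellate cell and fibroblast markers (11 tested, 4 above 0 and 7 below, 0 passed) summed to 102 to 160 FPKM in KO and 133 to 154 FPKM in WT. Of 7 cholangiocyte markers 2 were tested and 0 passed, with sums of 13.2 to 29.1 FPKM in KO and 12.4 to 21.3 FPKM in WT. Platelet markers were scarce, with 2 of 7 tested, 0 passed, sums of 4.76 to 8.92 FPKM in KO and 3.37 to 4.73 FPKM in WT, and Treml1 listed at 0 in 5 libraries. Neutrophil and monocyte markers (2 of 6 in the table tested, 0 passed) summed to 14.0 to 25.2 FPKM in KO and 11.3 to 34.7 FPKM in WT. Their part in the differences of the plasma protein genes was not tested.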

How the data were processed

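Liver RNA of 6 libraries (3 KO, 3 WT) was analysed. Per the file headers, the authors deposited FPKM per gene locus and library. TopHat, edgeR, mm9 and mm10 appear in the submitters' processing notes, with no role stated. All 49 loci lay at their RefSeq GRCm38.p6 positions, so positions are on mm10, with 1 added to the deposited starts. Of 23847 loci, 312 held LOWDATA and were left out. Values of 0.001, the lowest in the table, were set to 0.

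Values were taken as log2(FPKM + 1), which understates changes of genes near 1 FPKM, for the 10956 loci with a mean FPKM of at least 1. Genotypes were compared with limma 3.58.1 in R 4.3.3 (eBayes with trend, two-sided, Benjamini-Hochberg adjustment, threshold 0.05). The procedure was run on simulated data with independent noise of equal spread in both groups. In these data KO spread was larger than WT spread for most loci, so that run does not show how the test behaves here. The sources used here state neither total reads nor strandedness, nor how reads of overlapping or near-identical genes were divided. Relative depth was estimated from loci under 0.3 FPKM.

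The genes, lists and roles were chosen with earlier results of these data known, so no list was tested. Per-library values are given for the 3 genes of each role with the smallest p, for genes whose groups do not overlap and for untested genes, and up to 4 genes with the smallest p are named from each pathway list. Further genes were chosen after their values were seen. Alternatives were other pseudocounts, filters, scalings, no variance trend, a replicate block and leaving out each library.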

Additional observations from a re-analysis of the deposited data

How the results depend on the processing

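Under each of the 14 alternatives, 0 plasma protein genes passed, except without KO replicate 2, where Fetub did, so the count ranged from 0 to 1 with 1 library left out. The other pathway genes likewise gave 0 to 1 (Afp). Over all loci the count was 13, and it was 6 with no filter, 5 with a mean FPKM of at least 5, and 0 to 242 with 1 library left out (0 without WT replicate 1, where 940 loci had an unadjusted p under 0.05, and 242 without KO replicate 2). With a replicate block it was 47, of which 0 were plasma protein genes. The labels do not say whether the replicate numbers pair the libraries. Deviations of same-numbered libraries from their group means correlated at -0.08, 0.16 and 0.16, and those of differently numbered libraries at -0.26 to 0.17. Deviations within a group of 3 libraries sum to 0, so these correlations constrain each other and cannot settle the pairing. After median-of-ratios rescaling the median log2 difference was -0.39 for all tested plasma protein genes, -0.41 for clotting factors and -0.16 for fibrinolysis, and 8 genes near 0 changed sign. With 1 library left out, the median of all ranged from -0.32 to -0.18, of anticoagulants from -0.35 to -0.045, of Gla proteins from -0.36 to -0.038, of fibrinolysis from -0.10 to 0.064, of fibrinogen chains from -0.48 to -0.11, of carriers from -0.31 to -0.044, and of cystatin-type glycoproteins from -1.15 without KO replicate 1 to -0.29 without KO replicate 2. What moved these values was not tested. With 3 libraries per genotype and absolute depth unknown, a gene short of the threshold is not shown to be equal between genotypes.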
